A study of Drosophila melanogaster with 16 samples.

Results

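The 10 genes Sod1, Sod2, Sod3, Cat, Gclc, Gclm, Zw, Pgd, cnc and Keap1 were followed in larvae of Drosophila melanogaster that carried either of 2 mitochondrial genomes and ate either of 2 diets. They were chosen by name as the superoxide dismutases, the catalase, both subunits of the enzyme that starts glutathione synthesis, both NADPH-making dehydrogenases of the pentose phosphate pathway, and the transcription factor and inhibitor that set the antioxidant programme. Each symbol matched 1 gene of the 17207 counted, and all 10 were among the 12750 genes that passed the filter on low counts. Groups were compared by mitotype (Dahomey over Alstonville mtDNA) within a diet, and by diet (1:16 over 1:2 protein to carbohydrate, P:C) within a mitotype, with 4 libraries per group and 16 in all. All larvae shared the w1118 nuclear background, were wandering females of the last instar according to the methods, and lived on isocaloric foods whose yeast, treacle, semolina and sucrose were varied to set the P:C ratio. Alstonville and Dahomey name the places the mtDNA came from. The lines were made by chromosome replacement and then backcrossed, so that differences on chromosome 4 were reduced but not said to be absent. The extraction label speaks of sorted cells where the methods speak of larvae, and the number of larvae per library is not given in the sources used here. The study describes its replicates as biological, that is as distinct samples measured in parallel, without saying whether the 4 libraries of a group came from separate cultures or lines, so the p-values measure the spread between these libraries.

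Superoxide leaks from the respiratory chain, and superoxide dismutases turn it into hydrogen peroxide. Sod1 is the copper and zinc enzyme of the cytosol, Sod2 the manganese enzyme of the mitochondrial matrix and Sod3 the extracellular copper and zinc form, while Cat removes the peroxide in peroxisomes. Peroxidases do the same with electrons from glutathione or thioredoxin, and these electrons come in the end from NADPH. Gclc and Gclm are the catalytic and the modifier subunit of glutamate-cysteine ligase, the rate-limiting enzyme of glutathione synthesis. Zw (glucose-6-phosphate dehydrogenase) and Pgd (6-phosphogluconate dehydrogenase) each reduce NADP+ in the oxidative branch of the pentose phosphate pathway. The cnc gene encodes the fly counterpart of mammalian Nrf2, which is held back by Keap1 and switches on antioxidant and detoxification genes. The study measured superoxide dismutase activity in these larvae, and the RNA values ask which genes of the system differed between mitotypes and diets.

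Each library held between 24869991 and 31896525 assigned counts, with a median of 27680129, and the members were counted between 456 and 41846 times in every library. Muscle, fat body, midgut and haemocyte markers were detected in all 16 libraries, as whole larvae would give, and the male-specific RNA roX1 was at 13.0 to 685 CPM (counts scaled to a library of 1000000) although the methods name females. Dahomey 1:2 held both ends, with 13.0, 189, 16.0 and 685 CPM in replicates 1 to 4. The ranges were 15.8 to 191 CPM in Alstonville 1:2, 113 to 503 in Alstonville 1:16 and 258 to 347 in Dahomey 1:16. The 4 male markers tested did not move together, so roX1 alone does not give the male content. By diet 2 of the 4 had an estimate above 0 in each mitotype, and none passed. Their log2 fold changes ran from -5.18 to 1.46 in Alstonville and from -3.70 to 0.46 in Dahomey. Salivary glue genes, which are transcribed late in the last larval instar, summed to between 8900 and 16003 CPM over 6 genes in the 8 libraries of the 1:2 diet, and to between 4.20 and 6.60 CPM in 7 of the 8 libraries of the 1:16 diet. Dahomey 1:16 replicate 2 stood apart from its group at 2639 CPM. The sum of 4 muscle markers was 48661 to 55056 CPM in Alstonville 1:16 and 22639 to 47216 CPM in Dahomey 1:16, against 1154 to 5526 CPM in Alstonville 1:2 and 2003 to 9409 CPM in Dahomey 1:2, with the exception of Alstonville 1:2 replicate 4 at 23415 CPM. The 6 fat body markers summed to 47630 to 145233 CPM in Alstonville 1:2, 55495 to 88102 CPM in Dahomey 1:2, 31897 to 48682 CPM in Dahomey 1:16 and 5380 to 35834 CPM in Alstonville 1:16. The last value was replicate 2, and the next library of that group stood at 11733 CPM. By diet, 1 of the 6 had an estimate above 0 in Alstonville and 2 in Dahomey. Without Alstonville 1:2 replicate 4 and Dahomey 1:16 replicate 2, Lsp1beta rose (log2 fold change 1.65 and 1.85) while Fbp1 fell (-11.4 in both mitotypes). These tissue and stage markers moved with diet, and partly with mitotype on the 1:16 diet, together with the members described here; their part in the results was not tested. In whole larvae, fewer cells of a type and less RNA per cell cannot be told apart. The fold changes, the counts of calls and the within-library ratios were also computed without Alstonville 1:2 replicate 4 and Dahomey 1:16 replicate 2, whereas levels, shares and likeness values include them.

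On the 1:16 diet 5 of the 10 genes were higher in both mitotypes, namely Sod1, Sod2, Gclc, Gclm and Pgd, and 2 were lower in both, Sod3 and Cat. In Alstonville those 7 were all the calls, at an adjusted p under 0.05 by the quasi-likelihood F-test of edgeR with Benjamini-Hochberg adjustment over all 12750 genes, where 59.9% of all genes tested passed, 30.6% as higher and 29.3% as lower. In Dahomey 9 of the 10 passed, since Zw and cnc fell as well, where 49% of all genes passed, 24.6% as higher and 24.4% as lower. The interaction of mitotype and diet did not pass for Zw (adjusted p = 0.167) or cnc (adjusted p = 0.411), so their diet difference was not shown to be particular to Dahomey. The libraries of the diets did not overlap for 7 members in Alstonville, where 53.2% of all genes did not, and for 9 in Dahomey, where 45.2% did not. The members' median log2 fold change by diet was 0.47 in Alstonville and 0.38 in Dahomey, beside -0.11 and -0.12 over all genes. Without both libraries that stood apart, 8 members passed in Alstonville, with cnc added, and 9 in Dahomey, where 65.6% and 54.3% of all genes passed. The diet and mitotype comparisons share groups of libraries, so their counts are not independent of each other.

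**Figure D1:**
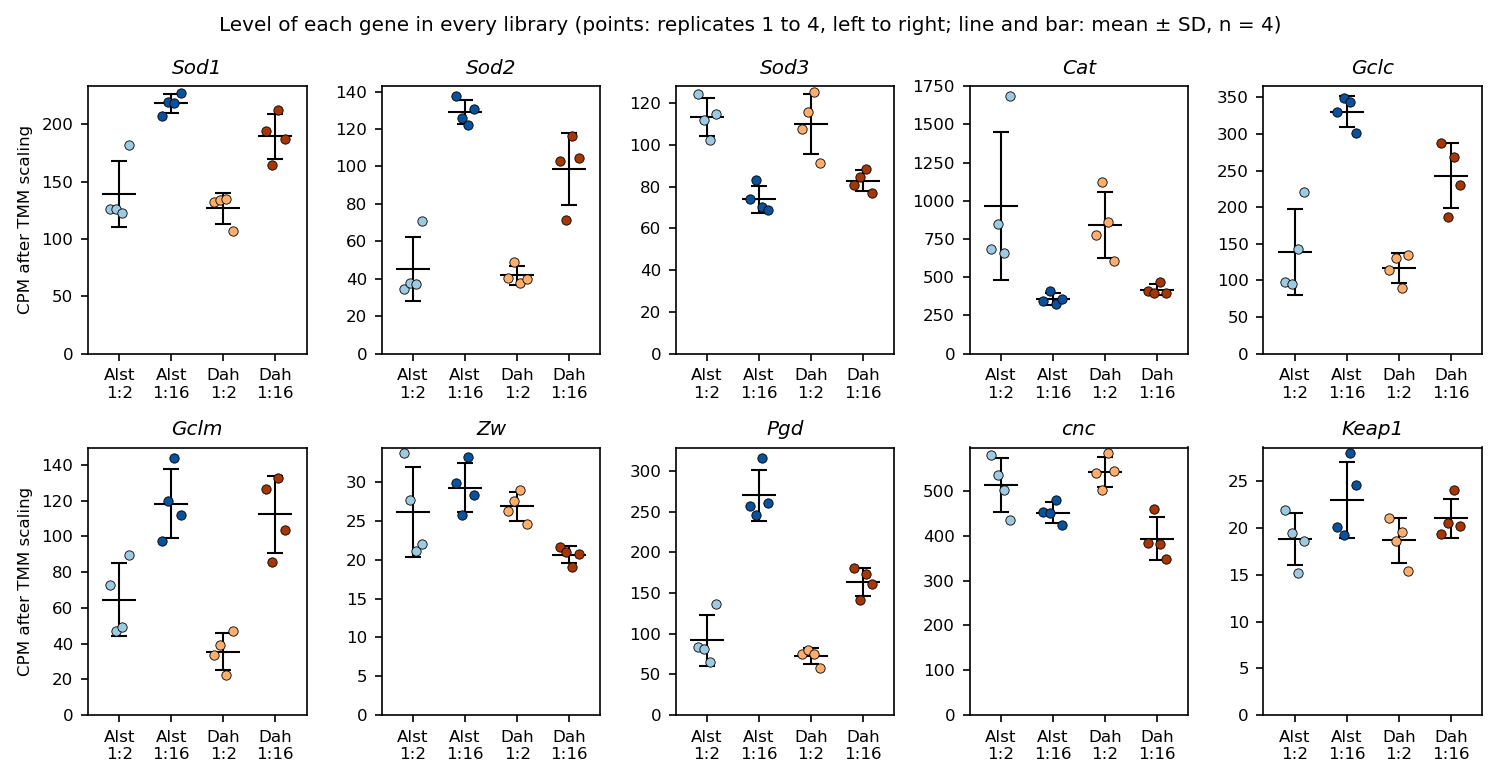
Level of each of the 10 genes in every library, in CPM after TMM scaling on a linear axis from 0. Points are replicates 1 to 4 of each group, with the mean as a line and the SD as a bar (Alst, Alstonville; Dah, Dahomey). For Sod2 and Pgd every 1:16 library lies above every 1:2 library, for Cat every one lies below, and for Zw the Dahomey 1:16 group is the lowest, at 19.1 to 21.7 CPM.

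Among the superoxide dismutases the mitochondrial enzyme moved most. Sod2 (gene 36878, chromosome 2R, 16772785 to 16773915, on the Release 6 assembly used by the authors) stood at 34.3, 37.8, 37.3 and 70.9 CPM in replicates 1 to 4 of Alstonville 1:2, and at 138, 126, 122 and 131 CPM in those of Alstonville 1:16. In Dahomey it stood at 40.2, 49.0, 37.8 and 39.8 CPM on the 1:2 diet and at 103, 71.5, 117 and 105 CPM on the 1:16 diet. Diet groups did not overlap in either mitotype, and the libraries nearest to the other diet were Alstonville 1:2 replicate 4 and Dahomey 1:16 replicate 2. Sod2 was 2.86-fold higher on the 1:16 diet in Alstonville (log2 fold change 1.52, SE 0.21, adjusted p = 4.93e-05) and 2.37-fold higher in Dahomey (1.24, SE 0.21, adjusted p = 0.000457). Without both libraries the log2 fold change in Alstonville was 1.82.

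Sod1 (gene 39251, chromosome 3L, 11112281 to 11113740) moved in the same direction by less. Its mean rose from 139 ± 28.8 CPM (SD, n = 4) in Alstonville 1:2 to 219 ± 8.13 in Alstonville 1:16 (log2 fold change 0.65, SE 0.13, adjusted p = 0.000704), and from 127 ± 13.5 in Dahomey 1:2 to 190 ± 19.9 CPM in Dahomey 1:16 (0.58, SE 0.13, adjusted p = 0.0024). Alstonville 1:2 replicate 4 was again the highest of its group, at 182 CPM beside 123 to 126 CPM in the others.

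Sod3 (gene 36232, chromosome 2R, 11380347 to 11384114), the secreted form, went the other way. It fell from 113 ± 9.09 to 74.0 ± 6.45 CPM in Alstonville (log2 fold change -0.61, SE 0.10, adjusted p = 0.000139) and from 110 ± 14.4 to 82.7 ± 5.05 CPM in Dahomey (-0.41, SE 0.10, adjusted p = 0.00381). The 1:2 libraries ran from 91.3 to 125 CPM and the 1:16 libraries from 68.6 to 88.6 CPM, with no overlap over both mitotypes.

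Levels of different genes can only be set side by side per length, so counts were also divided by the gene length in the deposited table (CPM per kb). On that scale Sod1 supplied a near-constant 60.8% to 62.7% of the reads per base of the 3 dismutase genes in the 4 group means. Sod2 took 15.0% ± 2.66 in Alstonville 1:2 and 28.2% ± 1.50 in Alstonville 1:16, and 15.4% ± 1.88 and 24.8% ± 2.41 in the Dahomey groups (SD, n = 4). Sod3 made up the difference, with 23.2% ± 3.79 and 9.52% ± 0.821 in Alstonville and 23.8% ± 1.27 and 12.5% ± 1.61 in Dahomey. The sum of the 3 genes was 289 ± 54.9 and 451 ± 8.65 CPM per kb in Alstonville on the 1:2 and the 1:16 diet, and 268 ± 26.6 and 389 ± 44.7 in Dahomey. These shares and sums are a description of RNA, without a test, and not of enzyme activity.

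**Figure D2:**
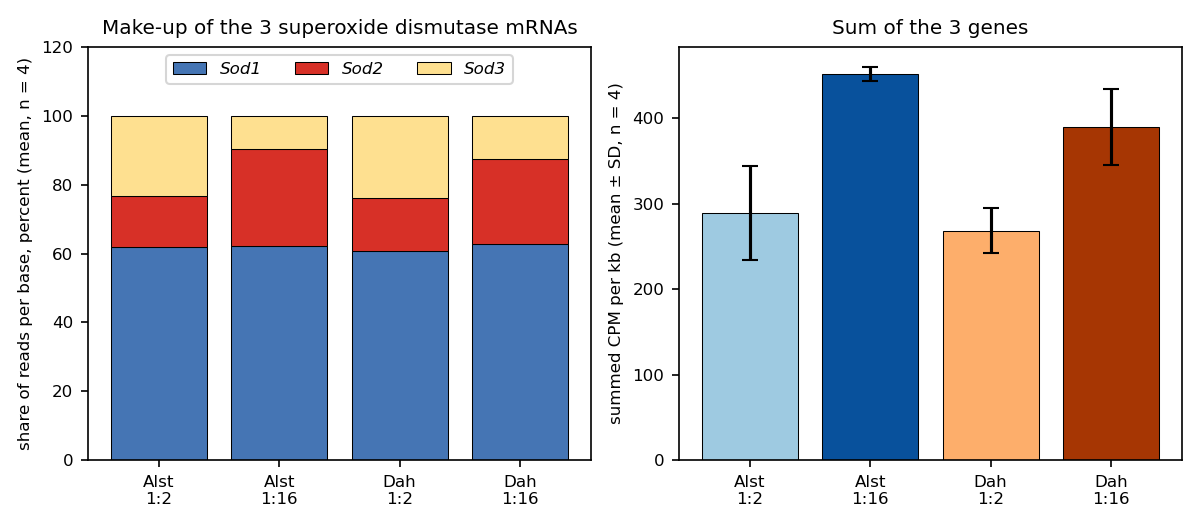
Left, mean share of Sod1, Sod2 and Sod3 in the summed reads per base of the 3 dismutase genes in each group, in percent; right, their summed level in CPM per kb, as mean and SD of 4 libraries (Alst, Alstonville; Dah, Dahomey). Sod2 makes up 15.0% and 15.4% on the 1:2 diet and 28.2% and 24.8% on the 1:16 diet, Sod3 shows the opposite order, and Sod1 keeps between 60.8% and 62.7%.

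Cat (gene 40048, chromosome 3L, 18822604 to 18828188), the peroxisomal catalase, was the most abundant member per kb on the 1:2 diet, at 485 CPM per kb in Alstonville and 422 in Dahomey, and was second to Sod1 on the 1:16 diet, at 180 and 210 CPM per kb beside 281 and 244. Its libraries were at 681, 847, 657 and 1684 CPM in Alstonville 1:2 and at 341, 410, 323 and 360 CPM in Alstonville 1:16. In Dahomey they were at 776, 1122, 859 and 608 CPM on the 1:2 diet and at 410, 397, 469 and 398 CPM on the 1:16 diet. The highest 1:16 library, at 469 CPM, lay below the lowest 1:2 library, at 608 CPM. Cat was lower on the 1:16 diet in Alstonville, at 0.370 of its 1:2 level (log2 fold change -1.43, SE 0.27, adjusted p = 0.000492), and in Dahomey, at 0.497 of it (-1.01, SE 0.27, adjusted p = 0.00704). Replicate 4 of Alstonville 1:2 carried part of the former, which was -1.02 without both libraries that stood apart.

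The ratio of Sod1 to Cat counts within a library, which does not depend on how libraries are scaled, was higher on the 1:16 diet by 1.99 on the log2 scale in Alstonville and by 1.56 in Dahomey. The ratio of Sod1 to Sod2 differed by -0.91 and -0.65. Each of these 4 differences separated all libraries of the diets and had the smallest p that an exact permutation of 4 against 4 libraries allows (two-sided p = 0.0286, adjusted p = 0.0595 over the 25 ratio tests made).

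Both subunits of glutamate-cysteine ligase rose on the 1:16 diet in both mitotypes. The interaction of mitotype and diet passed for the ratio of their counts, described below with its limits, but for neither subunit alone. Gclc (gene 53581, chromosome X, 8102181 to 8116147) stood at 98.1, 94.7, 143 and 221 CPM in Alstonville 1:2 and at 330, 349, 343 and 301 CPM in Alstonville 1:16. In Dahomey it stood at 114, 130, 89.8 and 134 CPM on the 1:2 diet and at 287, 186, 269 and 231 CPM on the 1:16 diet. All 1:16 libraries of a mitotype lay above its 1:2 libraries, by 2.37-fold in Alstonville (log2 fold change 1.25, SE 0.24, adjusted p = 0.000598) and 2.08-fold in Dahomey (1.05, SE 0.24, adjusted p = 0.00285).

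Gclm (gene 248194, chromosome 3R, 22685006 to 22686510), the modifier subunit, was at 72.6, 47.0, 49.1 and 89.7 CPM in Alstonville 1:2 and at 97.5, 120, 144 and 112 CPM in Alstonville 1:16. In Dahomey its libraries were at 33.5, 39.2, 22.2 and 46.9 CPM on the 1:2 diet and at 127, 85.7, 133 and 104 CPM on the 1:16 diet. Dahomey 1:2 was the lowest of the 4 groups, and its highest library, at 46.9 CPM, lay just below the lowest of Alstonville 1:2, at 47.0 CPM; 0.831% of all genes were lower there without overlap. The rise with the 1:16 diet was 1.83-fold in Alstonville (log2 fold change 0.87, SE 0.25, adjusted p = 0.00829) and 3.17-fold in Dahomey (1.66, SE 0.25, adjusted p = 0.000237). Gclm was the member with the strongest mitotype difference on the 1:2 diet, at -0.87 on the log2 scale (95% interval -1.41 to -0.32, unadjusted p = 0.00399), but it did not pass over all genes (adjusted p = 0.487). The interaction of mitotype and diet was 0.79 for Gclm (95% interval 0.02 to 1.55, adjusted p = 0.306) and did not pass either.

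The log2 ratio of Gclc to Gclm counts within a library had an interaction of mitotype and diet that passed its test. Replicates 1 to 4 had 1.35, 2.01, 2.92 and 2.46 Gclc counts per Gclm count in Alstonville 1:2, and 3.38, 2.90, 2.39 and 2.68 in Alstonville 1:16. The Dahomey libraries had 3.40, 3.33, 4.05 and 2.87 on the 1:2 diet and 2.27, 2.18, 2.02 and 2.22 on the 1:16 diet. In Dahomey the ratio was therefore lower in every 1:16 library than in any 1:2 library (difference of mean log2 ratios -0.64, exact permutation p = 0.0286, adjusted p = 0.0595), whereas in Alstonville it was on average higher with overlapping libraries (0.42, exact p = 0.2, adjusted p = 0.278), a difference within the spread of its libraries. Between mitotypes, the ratio was lower in every Dahomey 1:16 library than in any Alstonville 1:16 library (-0.38, exact p = 0.0286), and on the 1:2 diet it was 0.69 higher on average in Dahomey with a slight overlap (exact p = 0.0571). The interaction was -1.06 on the log2 scale (exact two-sided permutation test over 4900 arrangements, p = 0.000816, adjusted p = 0.0204 over the 25 ratio tests). It was the only one of the 25 to pass, which by itself does not single out this ratio. The exact permutation test of 4 against 4 libraries has a smallest p of 0.0286 (adjusted p = 0.0595 here). Those comparisons thus did not pass even where libraries did not overlap. Among the interactions, the other ratios had exact permutation p from 0.116 to 0.815. The arrangements of the interaction test shuffled mitotype labels within each diet, so that test assumes no mitotype difference on either diet. The interaction of Gclc over Gclm was -1.14 without both libraries that stood apart (exact permutation p = 0.00163). It was between -1.22 and -0.85 when each library was left out in turn (exact permutation p from 0.000408 to 0.00327).

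**Figure D3:**
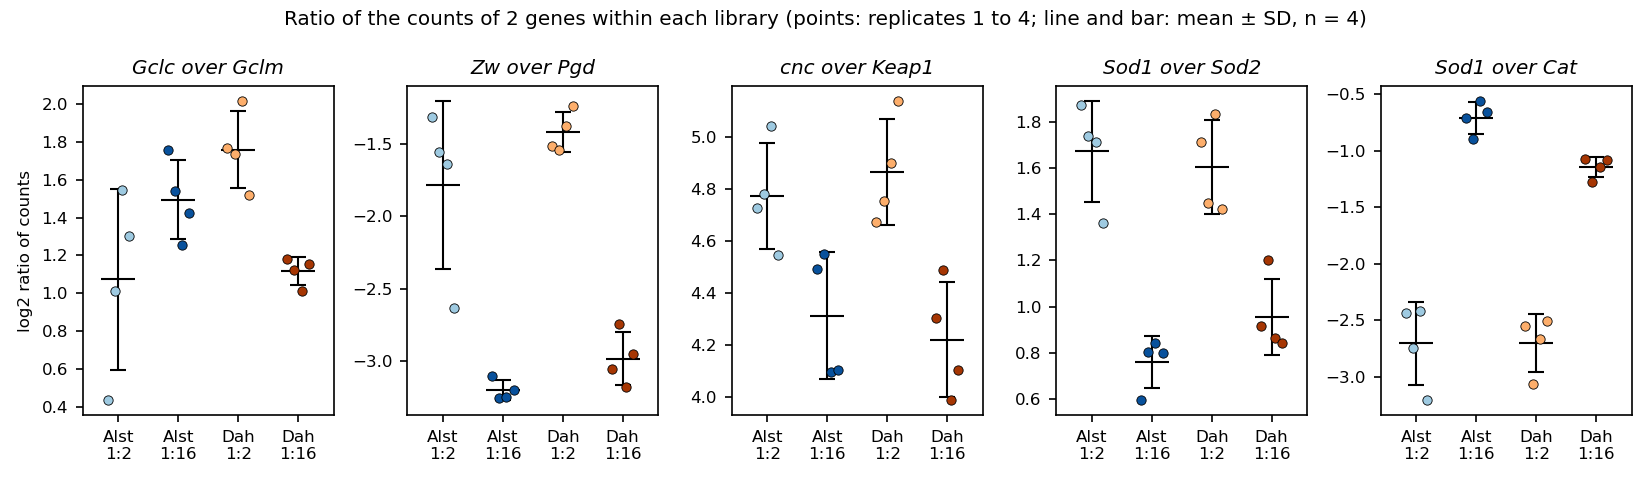
Log2 ratio of the counts of 2 members within each library, for the 5 pairs compared (Alst, Alstonville; Dah, Dahomey). Points are replicates, lines are group means and bars are SD (n = 4). In the Gclc over Gclm panel the Dahomey mean is 1.76 on the 1:2 diet and 1.12 on the 1:16 diet, with no overlap, while the Alstonville means are 1.07 and 1.49 with overlapping libraries.

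The dehydrogenases of the oxidative pentose phosphate branch differed in how they followed diet, and both were lower in Dahomey than in Alstonville on the 1:16 diet. Pgd (gene 31185, chromosome X, 2145136 to 2148566) was at 83.6, 81.5, 65.5 and 137 CPM in Alstonville 1:2 and at 257, 246, 316 and 260 CPM in Alstonville 1:16. In Dahomey it was at 75.1, 80.1, 75.4 and 58.1 CPM on the 1:2 diet and at 180, 141, 174 and 160 CPM on the 1:16 diet. The 1:16 groups lay above both 1:2 groups and apart from each other, with 180 CPM as the highest Dahomey value and 246 CPM as the lowest Alstonville value. Pgd rose 2.94-fold with the 1:16 diet in Alstonville (log2 fold change 1.55, SE 0.19, adjusted p = 1.89e-05) and 2.27-fold in Dahomey (1.18, SE 0.19, adjusted p = 0.000329).

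Zw (gene 32974, chromosome X, 19667252 to 19672353) did not follow Pgd. It was at 33.7, 27.7, 21.1 and 22.0 CPM in Alstonville 1:2 and at 29.9, 25.7, 33.2 and 28.3 CPM in Alstonville 1:16, where the diets overlapped (log2 fold change 0.16, 95% interval -0.12 to 0.45, adjusted p = 0.281). In Dahomey it was at 26.3, 27.6, 29.0 and 24.6 CPM on the 1:2 diet and at 21.7, 21.0, 19.1 and 20.7 CPM on the 1:16 diet, so that every 1:16 library was lower (log2 fold change -0.38, SE 0.13, adjusted p = 0.0269). The Dahomey call was lost with upper-quartile scaling (adjusted p = 0.0645) and without 1 library in 3 cases, namely Dahomey 1:16 replicate 3 (adjusted p = 0.0741), Dahomey 1:16 replicate 4 (0.0521) and Dahomey 1:2 replicate 3 (0.0712). In Alstonville a rise passed only without Alstonville 1:2 replicate 1 (log2 fold change 0.31, adjusted p = 0.0278).

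The ratio of Zw to Pgd counts therefore fell with the 1:16 diet, from between 0.161 and 0.403 to between 0.105 and 0.116 in Alstonville, and from between 0.344 and 0.424 to between 0.110 and 0.149 in Dahomey. The differences of the mean log2 ratios were -1.42 and -1.57, each with the smallest exact permutation p of 0.0286 (adjusted p = 0.0595), and their interaction was -0.15 (exact p = 0.815). Leaving out Alstonville 1:2 replicate 4 turned the sign of this interaction, to 0.13.

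Of the 10 members, Zw and Pgd were the only ones that passed the mitotype test on the 1:16 diet, where 15.3% of all genes passed and 9.3% passed as lower in Dahomey. Zw in Dahomey stood at 0.705 of its level in Alstonville (log2 fold change -0.51, SE 0.13, 95% interval -0.79 to -0.22, adjusted p = 0.0206) and Pgd at 0.607 of it (-0.72, SE 0.19, 95% interval -1.13 to -0.31, adjusted p = 0.0219). In both genes all 4 Dahomey libraries lay below all 4 Alstonville libraries. The Zw call was lost with upper-quartile scaling (adjusted p = 0.0931) and without Alstonville 1:16 replicate 1 (0.0568), Alstonville 1:16 replicate 3 (0.0694) or Dahomey 1:2 replicate 2 (0.0614). The Pgd call passed in all 11 alternatives that kept every library (adjusted p from 1.47e-05 to 0.0442) and was lost without Alstonville 1:16 replicate 3 (0.0712), Dahomey 1:16 replicate 2 (0.0677) or Dahomey 1:16 replicate 4 (0.0566). Without both libraries that stood apart, Zw (-0.51) and Pgd (-0.65) still passed and cnc passed as well (-0.28, adjusted p = 0.0283), where 16.4% of all genes passed. The log2 ratio of Zw to Pgd was 0.22 higher in Dahomey on this diet (exact permutation p = 0.0571).

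Sod2 and Gclc were also lower in every Dahomey 1:16 library than in any Alstonville 1:16 library, and with Zw and Pgd these made 4 members that did not overlap, where 24.2% of all genes did not overlap in that direction. Neither passed the test, with log2 fold changes of -0.38 for Sod2 (95% interval -0.84 to 0.07, adjusted p = 0.213) and -0.44 for Gclc (-0.96 to 0.08, adjusted p = 0.210). Sod2 passed when Alstonville 1:2 replicate 4 was left out (adjusted p = 0.0457), a library that enters only through the shared estimate of the spread. Over all 10 members the median log2 fold change was -0.20, beside -0.03 over all genes tested. Sod1 (-0.21), Gclm (-0.08), cnc (-0.20) and Keap1 (-0.13) had negative estimates, Sod3 (0.16) and Cat (0.22) had positive ones, and the 95% interval of each included 0. Sod3 passed as higher in 3 of the 11 alternatives that kept every library, among them upper-quartile scaling (0.30), and Sod1, Sod2, Gclc and cnc passed as lower with 2 or 3 surrogate variables in limma. The sign for Gclm and Keap1 changed with upper-quartile scaling, which moved the median of all genes from -0.03 to 0.11.

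**Figure D4:**
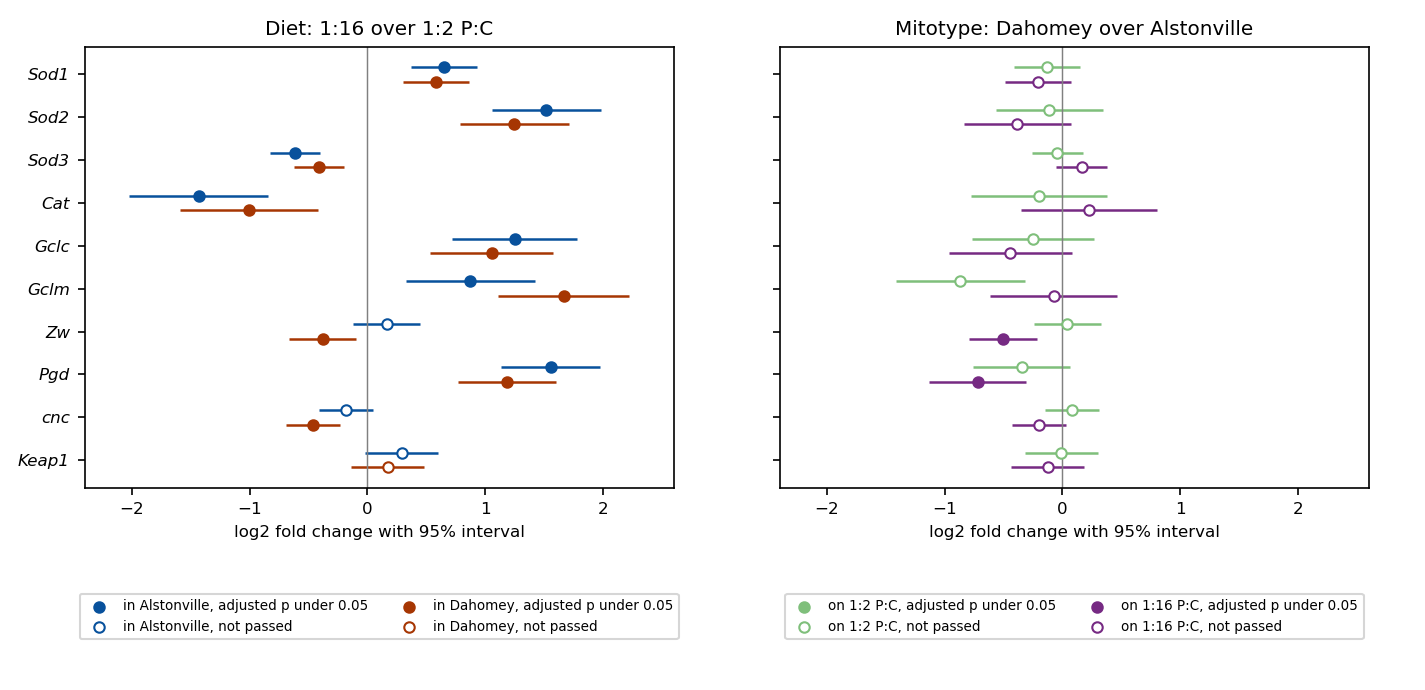
Log2 fold change of each member in the mitotype comparisons (Dahomey over Alstonville on either diet) and the diet comparisons (1:16 over 1:2 in either mitotype), with 95% intervals from the edgeR fit. Filled points had an adjusted p under 0.05 over all genes; they include 7 members for diet in Alstonville, 9 for diet in Dahomey, Zw and Pgd for mitotype on the 1:16 diet, and none for mitotype on the 1:2 diet.

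On the 1:2 diet none of the members passed the mitotype test by edgeR, DESeq2 or limma, where 0.0941% of all genes passed in edgeR. In edgeR 1 member, Gclm, had an unadjusted p under 0.05, as had 561 of all 12750 genes. The other 9 estimates lay between -0.35 (Pgd, 95% interval -0.76 to 0.06) and 0.08 (cnc, -0.15 to 0.31). The interval for Sod2 ran from -0.57 to 0.34 and that for Cat from -0.78 to 0.38. Differences inside these intervals were not excluded with 4 libraries per group. Without Alstonville 1:2 replicate 4 the signs of Sod1, Sod2, Cat, Gclc and Zw turned, and Sod2 and Cat stood at 0.19 and 0.21.

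No member passed the test of the interaction itself, where 0.784% of all genes passed, and DESeq2 and limma without surrogate variables called none either. Zw (-0.54, SE 0.18, unadjusted p = 0.0108, adjusted p = 0.167) and Gclm were the 2 members with an unadjusted p under 0.05, as had 1936 of all 12750 genes. The passing mitotype difference of Zw and Pgd on the 1:16 diet was thus not shown to differ from that on the 1:2 diet, which was 0.04 for Zw and -0.35 for Pgd. With 1, 2 and 3 surrogate variables in limma the interaction passed for 1, 2 and 4 members, Zw each time. Surrogate variables are hidden factors estimated from the residuals, and the methods use them without giving their number. Taken here from the residuals of the group fit, they could change the standard errors but not the estimates.

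Of the regulators, cnc passed the diet test in Dahomey and Keap1 passed in neither mitotype. cnc (gene 42743, chromosome 3R, 23185580 to 23226711) was at 581, 536, 501 and 436 CPM in Alstonville 1:2 and at 454, 451, 479 and 424 CPM in Alstonville 1:16, with overlap (log2 fold change -0.18, 95% interval -0.41 to 0.05, adjusted p = 0.140). In Dahomey it was at 539, 503, 585 and 544 CPM on the 1:2 diet and at 383, 461, 383 and 347 CPM on the 1:16 diet, without overlap, and fell by 0.46 on the log2 scale (SE 0.11, adjusted p = 0.00273). In Alstonville cnc passed in 6 of 11 alternatives that kept all libraries and when both libraries that stood apart were left out (-0.26, adjusted p = 0.0117). The annotation gives cnc 16 transcripts, and only some of its protein forms are counterparts of Nrf2, which gene counts cannot separate.

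Keap1 (gene 42062, chromosome 3R, 17073942 to 17079945), the adaptor that directs the ubiquitination of the CncC protein, was the least abundant member, at 5.42 to 6.67 CPM per kb over the group means. Its means were 18.8 ± 2.76, 23.0 ± 4.08, 18.7 ± 2.39 and 21.0 ± 2.09 CPM in Alstonville 1:2, Alstonville 1:16, Dahomey 1:2 and Dahomey 1:16, with overlap in each comparison (SD, n = 4). Its diet estimates were 0.29 in Alstonville (95% interval -0.02 to 0.60, adjusted p = 0.0886) and 0.17 in Dahomey (-0.14 to 0.48, adjusted p = 0.346). The former passed in 3 of 11 alternatives and without Alstonville 1:2 replicate 1 (adjusted p = 0.0469) or Alstonville 1:16 replicate 2 (0.0483). The ratio of cnc to Keap1 counts differed between the diets by -0.46 on the log2 scale in the Alstonville libraries (two-sided exact permutation, p = 0.0571), and among the Dahomey libraries by -0.65 (exact p = 0.0286, adjusted p = 0.0595).

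In order of the group means, Sod1, Sod2, Gclc, Gclm, Pgd and Keap1 ran from Alstonville 1:16 through Dahomey 1:16 and Alstonville 1:2 to Dahomey 1:2. Sod3 and Cat ran from Alstonville 1:2 through Dahomey 1:2 and Dahomey 1:16 to Alstonville 1:16. In that order Sod2 and Pgd showed no overlap between the 1:16 groups or between Dahomey 1:16 and Alstonville 1:2, Gclc showed none between the 1:16 groups, and Gclm showed none between the 1:2 groups. Neighbours of Sod1 and Keap1 overlapped at every step. Sod3 and Cat separated only between Dahomey 1:2 and Dahomey 1:16. Zw ran from Alstonville 1:16 through Dahomey 1:2 and Alstonville 1:2 to Dahomey 1:16, and cnc from Dahomey 1:2 through Alstonville 1:2 and Alstonville 1:16 to Dahomey 1:16, with every neighbour overlapping. The ratio of the highest to the lowest group mean was 3.74 for Pgd, 3.34 for Gclm, 3.09 for Sod2, 2.82 for Gclc and 2.70 for Cat, and from 1.23 to 1.72 for the other members.

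Per kb of gene length the order of the members changed with diet more than with mitotype. On the 1:2 diet Cat led, followed by Sod1 (179 CPM per kb in Alstonville, 163 in Dahomey) and Sod3 (65.8 and 63.8). On the 1:16 diet Sod1 and Cat were followed by Pgd (142) and Sod2 (127) in Alstonville and by Sod2 (97.4) and Pgd (86.5) in Dahomey. Zw, at 8.21 to 11.7 CPM per kb, and Keap1 were at the bottom in every group. Strand was not stated for the counting, and 3 members share exonic bases with genes on the opposite strand, so reads there cannot be told apart. Zw shares 369 bases with asRNA:CR44512, which had 0.24 to 0.76 CPM, and 42 bases with et, at 9.96 to 22.6 CPM. Pgd shares 104 bases with bcn92, at 9.66 to 14.7 CPM, and cnc shares 63 each with Irk1, at 73.5 to 213 CPM, and CG46310.

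The wider antioxidant and NADPH genes, listed by function but with earlier results of these data known, were counted in the same comparisons. Of 19 tested genes of the glutathione and thioredoxin system, 6 rose and 2 fell with the 1:16 diet in Alstonville, and 6 rose and 3 fell in Dahomey. As a share these 8 and 9 genes were fewer than the 59.9% and close to the 49% of all genes called in those comparisons. Those with the smallest p included the peroxiredoxin Prx2, from 132 ± 69.1 to 907 ± 26.0 CPM in Alstonville (log2 fold change 2.78) and from 115 ± 44.4 to 657 ± 100 CPM in Dahomey (2.52). Sulfiredoxin (Srx), which repairs over-oxidised peroxiredoxins, fell from 82.1 ± 26.9 to 7.99 ± 1.10 CPM in Alstonville (-3.36) and from 92.6 ± 29.0 to 6.55 ± 1.88 CPM in Dahomey (-3.82). The thioredoxin reductase Trxr1 rose from 164 ± 32.1 to 340 ± 13.7 CPM in Alstonville (1.05) and from 142 ± 13.9 to 254 ± 27.6 CPM in Dahomey (0.84). Without both libraries that stood apart, 7 rose and 2 fell in Alstonville and 6 rose and 4 fell in Dahomey. In that fit 65.6% and 54.3% of all genes passed.

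Of the 6 other enzymes of the pentose phosphate pathway, 5 rose with the 1:16 diet in each mitotype and none fell by the test. That held with and without both libraries that stood apart. With all libraries 30.6% of all genes rose in Alstonville and 24.6% in Dahomey. Without both libraries 4251 of 12704 genes rose in Alstonville and 3345 in Dahomey. The transketolase gene CG8036 rose by 1.47 on the log2 scale in Alstonville and 1.13 in Dahomey, and 6-phosphogluconolactonase (Pgls), which acts between Zw and Pgd, by 0.82 and 0.60. The remaining gene, CG5103, passed in neither mitotype and had negative estimates (-5.07 in Alstonville and -1.30 in Dahomey). Its level was low, with group means from 0.0422 to 3.62 CPM. None of the 6 passed between mitotypes on either diet. On the 1:16 diet 3 had an unadjusted p under 0.05, as had 4082 of all 12750 genes. Without both libraries, CG8036 (log2 fold change -0.57, adjusted p = 0.00818) and Pgls (-0.30, adjusted p = 0.0485) passed on that diet as lower in Dahomey, and CG8036 passed the interaction (-0.69, adjusted p = 0.0471). In that fit 16.4% of all genes passed between mitotypes on the 1:16 diet and 2.5% passed the interaction. Of 8 genes of other NADPH supply, 5 rose and 2 fell in Alstonville, where 29.3% of all genes fell, and 3 rose and 3 fell in Dahomey, where 24.4% fell. Without both libraries the latter were 4 and 2, where 54.3% of all genes passed. Cytosolic malic enzyme (Men) went from 311 ± 327 to 1586 ± 130 CPM in Alstonville (log2 fold change 2.35) and from 219 ± 106 to 1008 ± 168 CPM in Dahomey (2.20), while pug, a folate-cycle enzyme, fell by 0.98 and 1.30 on the log2 scale. The log2 fold change of Men in Alstonville was 3.40 without both libraries.

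Between mitotypes on the 1:16 diet the calls in these lists all had lower levels in Dahomey. They were 3 of 19 in the glutathione and thioredoxin system (Irc, -0.65; Trx2, -0.67; Trxr1, -0.42), 1 of 8 in other NADPH supply (Nadk1a, an NAD kinase, -0.60) and 3 of 5 among the partners and a target of cnc and Keap1. Of all genes, 15.3% were called in this comparison and 9.3% were called as lower. Without both libraries the counts in these lists were 4, 1 and 3, where 16.4% of all genes passed, 1472 of 12704 as lower. Those of the last list were maf-S, the small Maf partner of CncC (-0.40), ref(2)P, the fly p62 (-0.46), and the glutathione S-transferase GstD1, an often used CncC target (-0.82, adjusted p = 0.0489). maf-S was at 31.0 ± 0.445 CPM in Alstonville 1:16 and 23.5 ± 1.84 CPM in Dahomey 1:16, and GstD1 at 930 ± 75.1 and 529 ± 14.7 CPM. On the 1:2 diet and for the interaction, none of the genes in these 4 lists passed with all libraries. By diet, where 59.9% of all genes passed in Alstonville and 49% in Dahomey, maf-S (0.51) and ref(2)P (0.58) rose and Cul3, the scaffold of the Keap1 ubiquitin ligase, fell (-0.77) in Alstonville, and Cul3 fell in Dahomey as well (-0.73). Roc1a, the RING subunit of such ligases, fell in both mitotypes (-0.37 and -0.42) and is given for Alstonville after its value was seen. Without both libraries GstD1 also rose with the 1:16 diet in Alstonville (0.95, adjusted p = 0.000149), but it did not pass in Dahomey (0.15, adjusted p = 0.42).

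**Figure D5:**
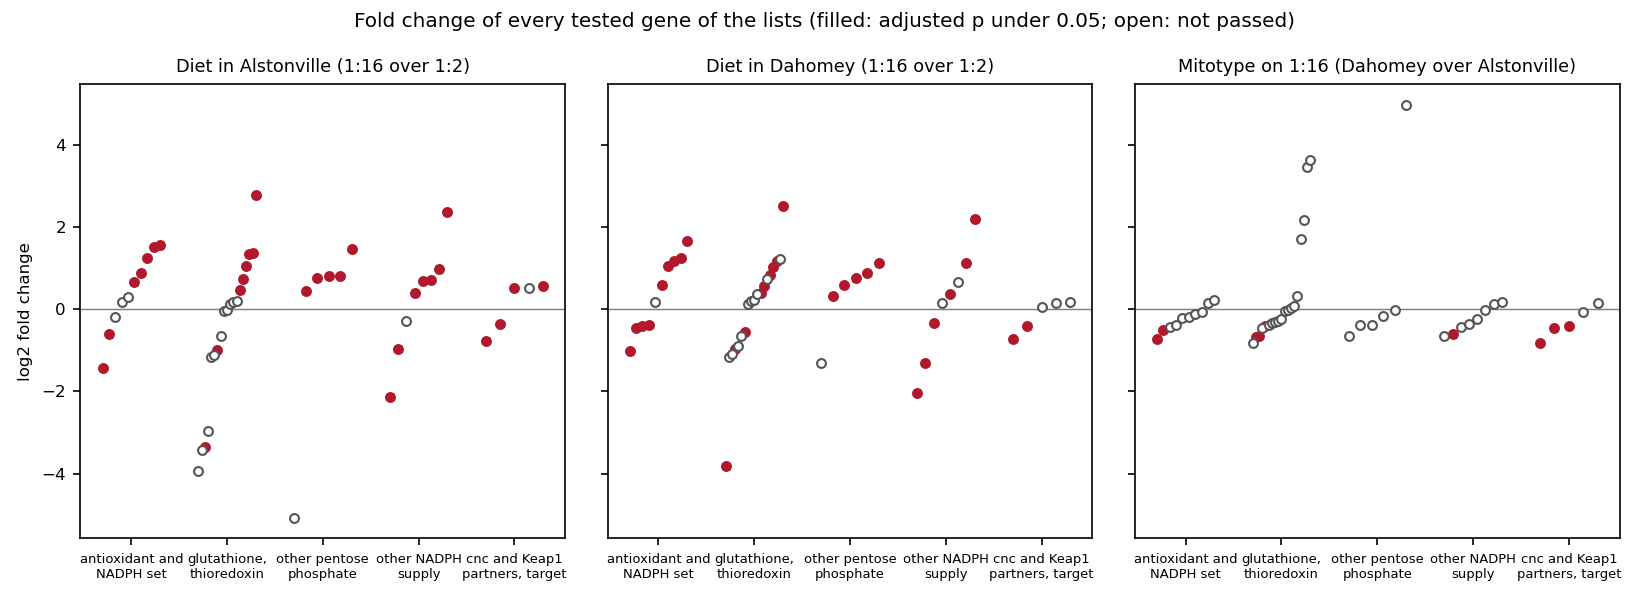
Log2 fold change of the tested genes in the members and the 4 further lists, for diet in each mitotype and for mitotype on the 1:16 diet; filled points passed at an adjusted p under 0.05 and open points did not. The called genes of the mitotype comparison all lie below 0, and the called pentose phosphate enzymes of both diet comparisons all lie above 0.

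The genes whose pattern over the 16 libraries was most like a member's were found from the root mean square difference of log2 CPM, each gene centred on its own mean, among genes of similar level. For Zw these were dock (0.108), CG31650 (0.117) and syd (0.124). The nearest gene was jagn for Sod1 (0.0662), ND-B22 for Sod2 (0.0834), CG12081 for Sod3 (0.0766), Cyp9f2 for Cat (0.317) and CG10737 for Gclc (0.103). It was stv for Gclm (0.306), Trx2 for Pgd (0.139), MESK2 for cnc (0.0737) and CG2182 for Keap1 (0.131). Among the pairs of members of similar level, which leaves several pairs out, Sod2 and Gclc were closest (0.208), followed by Sod2 and Pgd (0.224), while the subunits Gclc and Gclm differed by 0.374. These values share depth and diet across libraries and are descriptions without a test.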

How the data were processed

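Poly(A) RNA was sequenced as 100 bp paired-end reads on a HiSeq2000. The authors mapped reads with Subread to Release 6 with the ISO1 mitochondrial genome and deposited raw counts per gene from featureCounts. Versions, strand and treatment of multimapping reads are not given in the sources used here. The deposited gene length, another column, was used for values per kb; the annotation's exonic length differs for Sod1 and Sod3. Gene symbols came from a RefSeq gene table (81 of 84 listed symbols matched 1 gene), and 0 columns of the table were left unused.

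A minimum of 0.25 CPM in 4 or more libraries was required, and the genes left were tested with edgeR 4.0.16 in R 4.3.3 (TMM scaling, robust quasi-likelihood F-test, 1 coefficient per group, all 16 libraries, Benjamini-Hochberg adjustment over all genes, threshold 0.05). Standard errors were obtained by dividing each estimate's magnitude by the root of its F statistic, and 95% intervals used 12 degrees of freedom. The scripts were tested on simulated counts. DESeq2 1.42.0, limma 3.58.1 (with 0 to 3 surrogate variables), other scalings and filters, a replicate block, fits to 8 libraries and fits without each library were alternatives. Surrogate variables were kept out of the main test because their number is not stated. Ratios of counts were compared by exact permutation (70 arrangements, 4900 for the interaction), which covers the spread between libraries only.

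The members, lists and tests were chosen with earlier results of these data known. All members are named. Of the other lists, at most the 3 genes with the smallest p among those passing per comparison are named. GstD1, Trxr1, maf-S and Men were named in any case, and CG5103 was added after its values were seen. By likeness 3 genes are named for Zw and 1 for each other member. Leaving out Alstonville 1:2 replicate 4 and Dahomey 1:16 replicate 2 together was chosen after the data were seen. No 2 libraries of a group agreed within sampling noise.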

Additional observations from a re-analysis of the deposited data

Results flagged for a closer look

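Among 60 groups of 4 libraries examined for 1 value far from the rest, 4 were picked out by Dixon's gap test, which chance does in about 1 of 20 groups. Sod1 was at 182 CPM in Alstonville 1:2 replicate 4, above the others of its group, and Sod2 was at 70.9 CPM in the same library. Sod1 was at 107 CPM in Dahomey 1:2 replicate 4, below the others of its group. That library also had the highest roX1, at 685 CPM, and a link was not tested. The log2 ratio of Sod1 over Sod2 counts was 0.60 in Alstonville 1:16 replicate 1, below the others of its group. The interaction of mitotype and diet for the log2 ratio of Gclc over Gclm was -1.06 (exact permutation test, p = 0.000816, adjusted p = 0.0204). That test shuffled mitotype labels within each diet and so assumes no mitotype difference on either diet. By itself it cannot tell a different response to diet from a mitotype difference on 1 diet.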

How the results depend on the processing

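The diet calls of Sod1, Sod2, Sod3, Cat, Gclc, Gclm and Pgd in both mitotypes and of cnc in Dahomey passed in all 11 alternatives that kept every library and in all 16 fits without 1 library. Members called for diet numbered 7 to 9 in Alstonville and 8 to 9 in Dahomey over both kinds of alternative. For mitotype on the 1:16 diet, limma with 2 or 3 surrogate variables called 6 members (Sod1, Sod2, Gclc, Zw, Pgd and cnc, all lower), the fit to 8 libraries called 4 (Sod3 and Cat higher, Zw and Pgd lower), and fits without 1 library called 0 to 3; it was 0 without Alstonville 1:16 replicate 3, and 1 without Alstonville 1:16 replicate 1, Dahomey 1:16 replicate 2, Dahomey 1:16 replicate 4 or Dahomey 1:2 replicate 2. The interaction called 1, 2 and 4 members with 1, 2 and 3 surrogate variables. Since these came from the residuals of the group fit, they changed the standard errors and not the estimates. The interaction of Zw was -0.56 with 1 and with 3 of them, while its SE went from 0.178 to 0.125. The added calls are thus no separate evidence for a difference. Over all genes, mitotype on the 1:16 diet called 1952 genes, 2926 with DESeq2, 4765 with 8 libraries and 4452, 6459 and 6843 with 1, 2 and 3 surrogate variables, and the interaction called 100, 726 with DESeq2 and 2007, 3582 and 4074 with surrogate variables.

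Signs that turned belonged to estimates that did not pass. Gclm on the 1:16 diet was 0.0596 with upper-quartile scaling, 0.0342 with at least 10 counts in every library, 0.0266 with 8 libraries and 0.0351 without both libraries that stood apart. With upper-quartile scaling Keap1 on the 1:16 diet was 0.00444, and the interactions of Sod1 and Keap1 were 0.0555 and 0.0133; with at least 10 counts the interaction of Sod1 was 0.0359. Without both libraries, mitotype on the 1:2 diet gave 0.0229 for Sod1, 0.19 for Sod2, 0.21 for Cat, 0.0646 for Gclc and -0.0330 for Zw, the log2 ratio of Sod1 over Cat on that diet was -0.17 and the interaction of the log2 ratio of Zw over Pgd was 0.0551. Leaving out 1 library at a time, mitotype on the 1:2 diet ranged from -0.19 to 0.0230 for Sod1, -0.22 to 0.19 for Sod2, -0.11 to 0.0355 for Sod3, -0.35 to 0.21 for Cat, -0.39 to 0.0648 for Gclc, -0.0507 to 0.19 for Zw and -0.10 to 0.0731 for Keap1, Gclm on the 1:16 diet from -0.17 to 0.0353, the ratio of Sod1 over Cat on the 1:2 diet from -0.17 to 0.12 and the interaction of Zw over Pgd from -0.31 to 0.13.

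The replicate block left the members called at 0 and 2 for mitotype on the 1:2 and the 1:16 diet, 7 and 9 for diet in Alstonville and Dahomey, and 0 for the interaction. Replicate numbers were not shown to pair the libraries. Over 16 same-numbered pairs, in which each library entered more than once, correlations of deviations ran from -0.825 to 0.767, with 8 above 0.1. In 3 of the 16 pairs the first library correlated best with its own number in the other group. Deviations from the mean of 4 libraries cannot exclude a pairing. Depth does not limit these genes, each with at least 456 counts per library; the spread between 4 libraries does.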
